A study of Danio rerio with 4 samples.

Results

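Sphingosine-1-phosphate (S1P) is a lipid signal of blood and vessel walls, and 9 genes that make, carry, sense and remove it are described here. They are the receptor genes s1pr1, s1pr2, s1pr3a and s1pr4, the kinase genes sphk1 and sphk2, the exporter gene spns2, the lyase gene sgpl1 and the lipid phosphatase gene plpp3. The genes were picked by name as a pathway, with earlier results of these data known, and 9 of 9 were found among the 28346 genes listed. Of these, 6 had enough reads to be tested, while s1pr2, s1pr3a and sphk1 did not.

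Sphingosine kinases add a phosphate to sphingosine inside the cell, and Spns2 carries the product out of endothelial cells. Outside, S1P binds G protein-coupled receptors, of which S1pr1 couples to Gi proteins and is known for keeping endothelial junctions tight and restraining vessel sprouting. S1P is ended in one of several ways, by cleavage of its backbone by the lyase Sgpl1 or by removal of its phosphate by phosphatases such as Plpp3, which acts at the cell surface. In zebrafish, loss of s1pr2 or of spns2 stops the heart precursors from meeting at the midline.

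The cells were sorted from the caudal hematopoietic tissue, the tail vascular bed where larval blood stem and progenitor cells lodge, of Tg(kdrl:GFP;lyve1b:DsRed) zebrafish larvae 5 days after fertilisation. The larvae are labelled wildtype and untreated. Vein cells were positive for GFP, driven by the promoter of the endothelial receptor gene kdrl, and for DsRed, driven by that of lyve1b, a gene of veins and lymphatic vessels. Non-vein cells, called the control in their titles, had GFP alone, so that the non-vein group holds any GFP-positive cell without DsRed. There were 2 libraries of each group. Nothing in the labels says that each library had its own pool of larvae. The p-values therefore rest on the spread among 4 samples, and that spread may be technical. The comparison asks how S1P signalling genes of the vein endothelium of this niche differ from those of the other GFP-positive cells.

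The libraries held 15672159 to 18862102 estimated counts, so that a count of 0 allows up to 0.159 to 0.191 CPM (estimated counts scaled to library depth; counting error only). This floor is over the unscaled library totals, whereas the other CPM carry the TMM scaling described below. Of 15953 genes tested, 656 rose and 1170 fell in vein by the quasi-likelihood test of edgeR, at a Benjamini-Hochberg adjusted p under 0.05. Of 8 pan-endothelial markers found, 5 were higher and 0 lower, with 8 of 8 detected in each group. Of 9 vein and lymphatic markers 6 were higher. These 9 summed to 317 CPM in non-vein library 1 and 898 CPM in non-vein library 2, against 6528 and 5777 CPM in vein. Among them, lyve1b had 53.7 and 217 CPM in non-vein, against 1953 and 1636 CPM in vein. Of 10 leukocyte markers 5 were lower and 0 higher, and their summed level was 2757 and 2250 CPM in non-vein, against 176 and 751 CPM in the vein libraries. Of 10 cell cycle genes 9 were lower. Arterial markers gave 1 higher, dll4 (2.79-fold), and 5 lower of 11 genes, which were matched to 8 symbols. Of the lower, HEY2 had 43.6 and 27.9 CPM in non-vein, against 0.0653 and 0.255 CPM in vein. HEY1 had 20.4 and 33.5 CPM in non-vein, against 2.94 and 2.87 CPM in vein. TBX20 had 189 and 138 counts in non-vein and 0 in vein. ENSDARG00000041959 and ENSDARG00000057633, each named CXCR4 and matched without a paralog letter, were among the lower, though the list asked for cxcr4a alone. Mural and stromal markers gave 1 higher and 1 lower of 7. Most of the summed level of the mural and stromal markers, 294 and 336 CPM in non-vein, against 922 and 951 CPM in vein, was 1 TAGLN gene (ENSDARG00000033466) at 276, 305, 885 and 810 CPM, whereas NOTCH3 fell and PDGFRB and CSPG4 were at or near 0. The vein libraries lay above the non-vein libraries for col1a1a (9.13, 6.35, 17.8 and 88.7 CPM) and col1a2 (0.435, 6.66, 11.1 and 40.2 CPM). The same held for acta2 (0, 2.44, 6.53 and 11.4 CPM). These collagen and actin genes did not pass the test. Skeletal muscle markers gave 1 higher and 0 lower of 6, by edgeR and with 0 lower at an unadjusted p under 0.05, and summed to 106 and 194 CPM in non-vein, against 295 and 793 CPM in vein. Epidermis markers, with none called of 4 tested, summed to 60.4 and 94.7 CPM in non-vein, against 32.98 CPM in vein library 1 and 341 CPM in vein library 2. Erythroid markers, with none called of 7 tested, summed to 1289 and 1180 CPM in non-vein, against 1015 and 2021 CPM in vein. In these bulk samples, fewer cells of a type and less RNA per cell cannot be told apart. The part of these shifts in the results below was not tested.

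The vein libraries held more mRNA of the receptor s1pr1 and of the exporter spns2. Of the 6 members tested, 2 were higher and 0 lower in vein, where 11.4% of all genes tested passed in either direction (4.11% of all genes tested were higher and 7.33% lower). At an unadjusted p under 0.05 in edgeR, 1 member, s1pr4, was lower, where 4795 of all 15953 genes tested passed in either direction. DESeq2 called 1 member lower and limma-voom 0, where they called 2307 and 1508 of the 15953 genes lower. The median log2 fold of the 6 was 0.73, against 0.01 for all genes tested. The libraries of the groups did not overlap for 5 of the 6, with vein above for 3 and below for 2. This separation is common, since 62.1% of all genes tested had it, 29% with vein above and 33.1% with vein below.

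**Figure D1:**
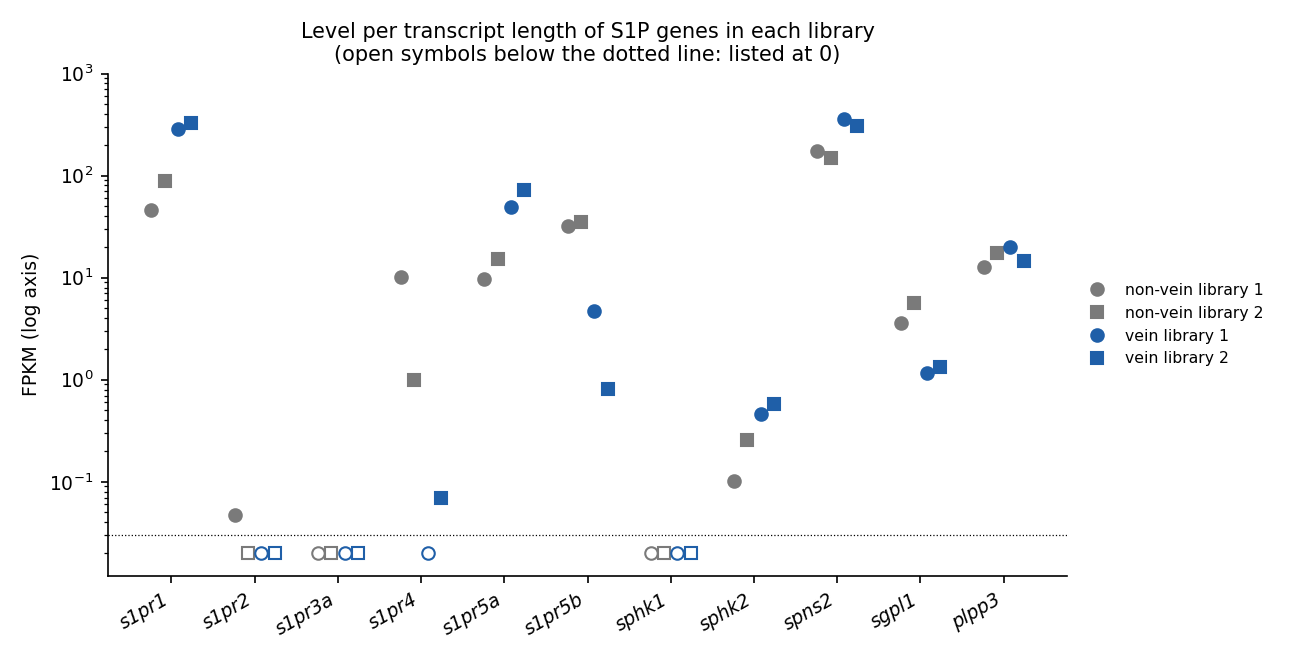
FPKM (fragments per kilobase of transcript, scaled to library depth, as deposited, log axis) of the 9 S1P genes and of s1pr5a and s1pr5b, with 1 symbol per library. The exporter spns2 and the receptor s1pr1 stand highest in both groups and higher in vein, while sphk1 and s1pr3a are listed at 0 in all 4 libraries.

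Of the receptors, s1pr1 (ENSDARG00000042690, named S1PR1 in the name table) stood at 106 and 200.1 CPM in non-vein, against 693 and 802 CPM in vein. Both vein libraries lay above both non-vein libraries, and the non-vein libraries differed from each other by more than the vein libraries did on a log scale. The gene rose 4.89-fold, from a mean of 153 ± 66.6 CPM to one of 748 ± 77.1 CPM (SD, n = 2; log2 2.29, SE 0.35; edgeR, adjusted p = 0.01999). It passed the threshold in each of the 15 alternative settings, with log2 folds from 1.90 without non-vein library 1 to 2.81 without non-vein library 2. Per transcript length it had 46.0 and 88.8 FPKM in non-vein and 288 and 326 FPKM in vein. In the vein libraries 431 and 360 of the 28346 genes had a higher FPKM, against 2136 and 1335 in the non-vein libraries.

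s1pr4 (ENSDARG00000074851), a receptor gene that in mammals is found mainly in leukocytes, had 328 and 33 counts in non-vein, against 0 and 2 in vein. Most of its reads therefore came from 1 library, non-vein library 1, at 17.8 CPM against 1.68 CPM in non-vein library 2. Over the groups this was 361 against 2 counts, a ratio of 147 with an exact 95% binomial interval of 40.4 to 1218 that covers counting error only. The difference did not pass the test (edgeR, adjusted p = 0.0722). Without non-vein library 1 the adjusted p was 0.646, and without non-vein library 2 it was 0.0298. The leukocyte markers summed to 2757 and 2250 CPM in the non-vein libraries, but not every marker of the list was at like levels in both. The most abundant of them, lyz, for lysozyme, had 666 and 633 CPM in non-vein, against 82.8 and 563 CPM in vein. LCP1, for the actin bundler L-plastin, had 992 and 637 CPM in non-vein, against 23.2 and 90.9 CPM in vein. Another leukocyte marker, cd74b, had 15.6 and 72.9 CPM in non-vein and 0 in vein. Of the 7 lymphocyte markers, rag1, cd4-1 and il7r had no count in any library, and the whole list summed to 2.50 and 0.610 CPM in non-vein, against 0 and 2.81 CPM in vein. Thrombocyte markers gave 1 higher and 2 lower of 6, and summed to 156 and 129 CPM in non-vein, against 67.5 and 83.4 CPM in vein. The most abundant of them were NFE2 and FGL2. NFE2, a transcription factor gene, had 112 and 94.2 CPM in non-vein, against 4.51 and 3.12 CPM in vein. FGL2 had 2.23 and 7.32 CPM in non-vein, against 57.7 and 71.2 CPM in vein. FGL2 was matched to fgl2a without a paralog letter, was the 1 higher marker and made up most of the vein sum. Among the other thrombocyte markers, itga2b had 17.2 and 4.62 CPM in non-vein and 0 in vein. For mpl these were 8.42 and 7.72 CPM in non-vein, against 0.98 and 1.40 CPM in vein. The part of these cells in the s1pr4 level was not tested.

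s1pr2 (ENSDARG00000036548), the receptor of the heart precursor phenotype, had 2 counts in non-vein library 1 and 0 in the other 3. s1pr3a (ENSDARG00000042470) had 0 counts in all 4 libraries. Neither was detectable above the level that a count of 0 allows. Reads that the authors assigned to 2824 assembled loci without a gene name, 4.95% to 7.51% of a library, could not be traced to any of these genes.

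Of the S1P receptor genes outside the 9 members, 1 rose and another had a lower fitted level that missed the threshold. s1pr5a (ENSDARG00000040526), which encodes another Gi-coupled S1P receptor, had 23.2 and 35.5 CPM in non-vein, against 123 and 181 CPM in vein. It rose 5.19-fold in vein (log2 2.38, SE 0.35; edgeR, adjusted p = 0.0192), and passed in 15 of 15 alternative settings. S1PR5 (ENSDARG00000052192), taken for its paralog s1pr5b because the table name lacks a paralog letter, had 45.8 and 49.2 CPM in non-vein, against 6.92 and 1.21 CPM in vein. Its vein libraries lay far below the non-vein libraries, and the fitted level was 11.7-fold lower in vein, but it did not pass the test (log2 -3.54, SE 0.84; edgeR, adjusted p = 0.0529). It passed in 9 of 15 alternative settings, among them DESeq2 (adjusted p = 0.000126) and limma-voom (0.0204). Without vein library 1 its log2 fold was -5.29 (adjusted p = 0.0189), and without vein library 2 it was -2.78 (0.0236). Whether reads were split between the s1pr5 paralogs is not known.

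**Figure D2:**
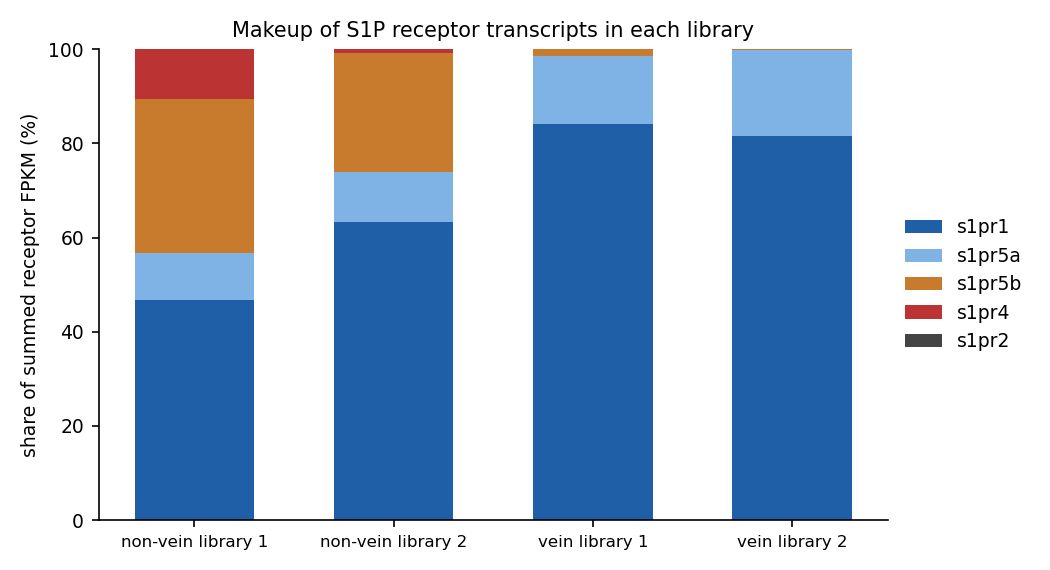
Share of each S1P receptor gene in the summed FPKM of the receptor genes found, in percent, with 1 bar per library. s1pr1 holds 46.8% and 63.2% in non-vein, against 84.2% and 81.7% in vein.

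Per transcript length, the makeup of the receptor mRNA differed between the groups, given here as shares of summed FPKM and without a test. s1pr1 held 46.8% and 63.2% of it in non-vein, against 84.2% and 81.7% in vein. s1pr5a held 9.86% and 10.8% in non-vein, against 14.4% and 18.1% in vein. The gene taken for s1pr5b held 32.9% and 25.3% in non-vein but 1.37% and 0.201% in vein. s1pr4 held 10.4% and 0.703% in non-vein and at most 0.0173% in vein. The sum itself was 98.3 and 140.4 FPKM in non-vein and 342 and 399 FPKM in vein, larger in vein, and there held mostly by s1pr1 and s1pr5a. s1pr3b was not matched in the name table and is not part of these sums.

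The exporter spns2 (ENSDARG00000061017) was the most abundant of the 9 genes per length in every library except vein library 2, where s1pr1 was above it. It had 260.3 and 238 CPM in non-vein, against 563 and 510.1 CPM in vein. The libraries of each group lay close together and the groups were apart. spns2 rose 2.16-fold, from a mean of 249 ± 16.1 CPM to one of 537 ± 37.3 CPM (SD, n = 2; log2 1.11, SE 0.20; edgeR, adjusted p = 0.0272). The fold varied little between settings, with log2 values from 1.02 to 1.18, but the call held in 12 of 15. Leaving out vein library 1 or vein library 2 ended it (adjusted p = 0.0925 and 0.0564), as did a fit with unfiltered log2(FPKM + 1) in limma (0.0534).

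How s1pr1 and spns2 compared with endothelial genes depended on the gene they were set against, in ratios chosen after the values were seen. Ratios were taken only to cdh5, an endothelial junction gene that rose 2.35-fold, and to kdrl. Of the other endothelial markers, TIE1, etsrp and EGFL7 were called and rose 4.13-, 3.67- and 3.29-fold. KDR, tek and FLI1 were not called, with log2 folds of 1.19, 1.38 and -0.38. spns2 CPM were 2.18 and 1.53 times those of cdh5 in non-vein, against 1.91 and 1.46 times in vein, and these ranges overlap. s1pr1 CPM were 0.886 and 1.29 times those of cdh5 in non-vein, against 2.35 and 2.30 times in vein, with no overlap. s1pr5a had a like pattern, at 0.194 and 0.229 times cdh5 in non-vein, against 0.418 and 0.519 times in vein. Its ratio to kdrl was 0.0116 and 0.011999 in non-vein, against 0.0117 and 0.0229 in vein, and these ranges overlap. Against kdrl, which itself rose 3.72-fold, the s1pr1 ratio was 0.0531 and 0.0677 in non-vein, against 0.0660 and 0.101 in vein, and these ranges overlap. The ratio of spns2 to kdrl was 0.130 and 0.0804 in non-vein, against 0.0536 and 0.0643 in vein, with the vein libraries lower. An exact two-sided permutation test of such a ratio cannot go below p = 0.33 with these libraries, so none was run.

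The kinases were nearly absent beside the exporter. sphk1 (ENSDARG00000100290) had 0 counts in all 4 libraries. sphk2 (ENSDARG00000069893) had 11 and 22 counts in non-vein and 39 and 47 counts in vein, or 0.598, 1.12, 2.55 and 2.997 CPM. Both vein libraries were higher, but the difference did not pass the test (log2 1.68, SE 1.23; edgeR, adjusted p = 0.435) and was not called in any of the 12 alternative settings that kept the gene. In FPKM, spns2 exceeded sphk2 by 1730- and 571-fold in the non-vein libraries and by 771- and 532-fold in the vein libraries. These ratios rest on the 11 to 47 counts of sphk2, and their counting error is not given.

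Neither breakdown enzyme passed the test. sgpl1 (ENSDARG00000061375), the gene of the lyase that destroys S1P irreversibly, had 9.94 and 18.9 CPM in non-vein, against 4.24 and 5.48 CPM in vein. The vein libraries were lower than both non-vein libraries, by 2.96-fold in the fit, and the difference did not pass the test (log2 -1.56, SE 0.67; edgeR, adjusted p = 0.187). None of the 15 alternative settings called it. plpp3 (ENSDARG00000059933) had 42.8 and 56.5 CPM in non-vein, against 70.1 and 55.7 CPM in vein, and the groups overlapped (log2 0.34, SE 0.30; edgeR, adjusted p = 0.529). The ratio of s1pr1 to sgpl1 in FPKM was 12.9 and 15.7 in non-vein, against 246 and 243 in vein. It was not tested, and rests on 65 and 86 sgpl1 counts in vein and on an sgpl1 difference that did not pass. The transcript length behind the sgpl1 FPKM also differed between libraries, as given below.

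Set in order of FPKM in vein, spns2 at 309 to 356 and s1pr1 at 288 to 326 did not differ beyond their spread. plpp3 followed at 14.55 to 19.8, sgpl1 at 1.17 to 1.34, sphk2 at 0.462 to 0.581 and s1pr4 at 0 to 0.069. In non-vein, spns2 at 147 to 175 stood apart from s1pr1 at 46.0 to 88.8, and plpp3 came next at 12.7 to 17.3. s1pr4 at 0.987 to 10.3 and sgpl1 at 3.57 to 5.64 overlapped, and sphk2 was last of the tested genes at 0.101 to 0.258.

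**Figure D3:**
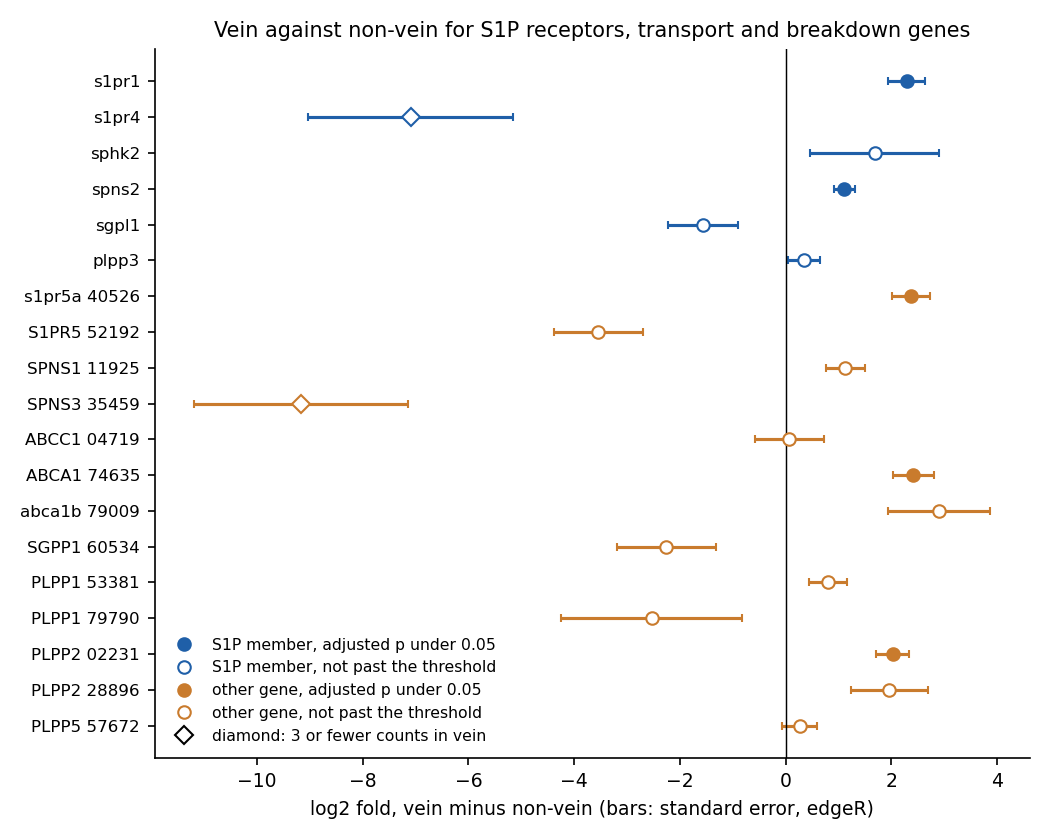
Log2 fold of vein minus non-vein with its standard error (edgeR) for the 6 tested members, in blue, and for other S1P receptor, transport and phosphatase genes, in orange, labelled by table name and the last digits of the identifier. Filled symbols (s1pr1, spns2, s1pr5a, ABCA1 and 1 PLPP2 gene) pass the threshold. Diamonds had 3 or fewer counts in vein, and their fitted size depends on the prior count.

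Dividing the counts by the FPKM gives the transcript length behind each value, and this length was not the same in all libraries for every gene. For s1pr1 it was 2.35 kb in all 4 libraries. For spns2 it was 1.52 and 1.68 kb in non-vein and 1.54 and 1.58 kb in vein, and for plpp3 it lay between 3.40 and 3.66 kb. For sgpl1 it was 2.84 and 3.48 kb in non-vein and 3.54 and 3.91 kb in vein, so that FPKM and CPM weight this gene differently between libraries. A length was taken only where a library had at least 50 counts of the gene, so none is given for sphk2. What sets this length was not tested.

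Among other carriers of S1P or its relatives, 1 of 5 tested genes rose and 0 fell in vein by edgeR (median log2 1.13), against 4.11% and 7.33% of all genes tested. At an unadjusted p under 0.05 in edgeR, 3 of the carriers were higher and 1, SPNS3, lower. Of all 15953 genes tested, 4795 passed this in either direction. DESeq2 called 2 of the carriers higher and 1 lower, SPNS3, and limma-voom 2 higher and 0 lower. Over all 15953 genes, DESeq2 called 1611 higher and 2307 lower, and limma-voom 1026 and 1508. The ABC transporter gene ABCA1 (ENSDARG00000074635), which moves lipid to lipoproteins, rose 5.33-fold (log2 2.42, SE 0.39; edgeR, adjusted p = 0.0218). Its log2 fold was 3.05 without non-vein library 2. Its paralog abca1b had 1.52 and 13.3 CPM in non-vein, against 47.0 and 63.6 CPM in vein. It did not pass by edgeR (adjusted p = 0.109) but did by DESeq2 (0.00506) and limma-voom (0.0305). SPNS1 (ENSDARG00000011925), a lysosomal relative of spns2, had 15.2 and 15.5 CPM in non-vein and 33.6 CPM in both vein libraries and did not pass (log2 1.13; edgeR, adjusted p = 0.104). SPNS3 (ENSDARG00000035459), another relative, had 102 and 54 counts in non-vein and 0 in vein, which puts it at least 42.3-fold lower when the vein sum is set to 3 counts, and it did not pass (edgeR, adjusted p = 0.0568). mfsd2b, the S1P exporter gene of red cells and platelets in mice, had 11 counts in non-vein library 2 and 0 in the other libraries. apom, the gene of the lipoprotein-bound S1P carrier of plasma, had no count in any library.

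Of 6 other lipid phosphatase genes tested, 1 rose and 0 fell in vein by edgeR, DESeq2 and limma-voom (median log2 0.53). By edgeR, 4.11% of all genes tested rose and 7.33% fell. Over all 15953 genes, DESeq2 called 1611 higher and 2307 lower, and limma-voom 1026 and 1508. At an unadjusted p under 0.05 in edgeR, 2 of the phosphatase genes were higher and 0 lower. Of all 15953 genes tested, 4795 passed this in either direction. PLPP2 (ENSDARG00000002231), of the same family as plpp3, had 36.0 and 57.3 CPM in non-vein, against 204 and 175 CPM in vein. It rose 4.07-fold (log2 2.02, SE 0.31; edgeR, adjusted p = 0.0204). In FPKM it stood at 169 and 141 in the vein libraries, above plpp3 in each of them. A second PLPP2 gene (ENSDARG00000028896) had 2.45 and 5.74 CPM in non-vein, against 12.2 and 19.8 CPM in vein. It did not pass (log2 1.96; edgeR, adjusted p = 0.140). SGPP1 (ENSDARG00000060534), an S1P phosphatase of the endoplasmic reticulum, had 7.28 and 6.05 CPM in non-vein, against 1.18 and 1.59 CPM in vein, and did not pass (edgeR, adjusted p = 0.176).

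Upstream of the kinases, 2 of 13 tested genes of sphingoid base and ceramide synthesis were higher and 0 lower (median log2 0.58), against 4.11% and 7.33% of all genes tested. At an unadjusted p under 0.05 in edgeR, 3 genes were higher and 1, CERS6, lower. Of all 15953 genes tested, 4795 passed this in either direction. DESeq2 called CERS6 lower too, and limma-voom called 0 lower, where they called 2307 and 1508 of the 15953 genes lower. In the main fit CERS6 did not pass (log2 -5.28; edgeR, adjusted p = 0.104). With 1 library left out its log2 fold ran from -10.68 to -3.96. SPTLC2 (ENSDARG00000018976), a subunit of serine palmitoyltransferase, which starts sphingolipid synthesis, rose 2.61-fold (edgeR, adjusted p = 0.0421). A second SPTLC2 gene (ENSDARG00000074287) had 47.8 and 75.1 CPM in non-vein, against 65.7 and 91.6 CPM in vein. Its groups overlapped and it did not pass (log2 0.36; edgeR, adjusted p = 0.569). degs1, the desaturase that makes ceramide, had 323 and 328 CPM in non-vein, against 758 and 892 CPM in vein, and rose 2.53-fold (log2 1.34, SE 0.20; edgeR, adjusted p = 0.0187). Leaving out vein library 1 or vein library 2 ended the call of SPTLC2 (adjusted p = 0.0843 and 0.0743).

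Of 15 tested genes of ceramide turnover and sphingosine release, 3 rose and 0 fell by edgeR (median log2 1.17), against 4.11% and 7.33% of all genes tested. At an unadjusted p under 0.05 in edgeR, 6 were higher and 0 lower. Of all 15953 genes tested, 4795 passed this in either direction. DESeq2 called 5 of the turnover genes higher and 0 lower, and limma-voom 4 and 0. Over all 15953 genes, DESeq2 called 1611 higher and 2307 lower, and limma-voom 1026 and 1508. ACER2, an alkaline ceramidase of the Golgi that releases the sphingosine which the kinases use, had 80.0 and 99.9 CPM in non-vein, against 299 and 430.2 CPM in vein. It rose 4.05-fold (log2 2.02, SE 0.28; edgeR, adjusted p = 0.0172). GALC (ENSDARG00000016474), a lysosomal galactosylceramidase, rose 6.97-fold, and PSAP, the precursor of the saposins that help lysosomal enzymes reach sphingolipids, rose 5.23-fold (edgeR, adjusted p = 0.0206 and 0.0251). A second GALC gene (ENSDARG00000037064) had 11.7 and 16.2 CPM in non-vein, against 37.6 and 25.2 CPM in vein. It did not pass (log2 1.17; edgeR, adjusted p = 0.147). The log2 fold of PSAP was 3.08 without non-vein library 2, in place of 2.39. The acid ceramidase gene ASAH1 (ENSDARG00000034817) had 5.38 and 37.7 CPM in the non-vein libraries, which lay far apart, and 156 and 144 CPM in the vein libraries, and did not pass (edgeR, adjusted p = 0.0919). It did pass by DESeq2 (adjusted p = 0.000924) and limma-voom (0.0182). With 1 library left out its log2 fold ran from 1.997, without non-vein library 1, to 4.80, without non-vein library 2.

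**Figure D4:**
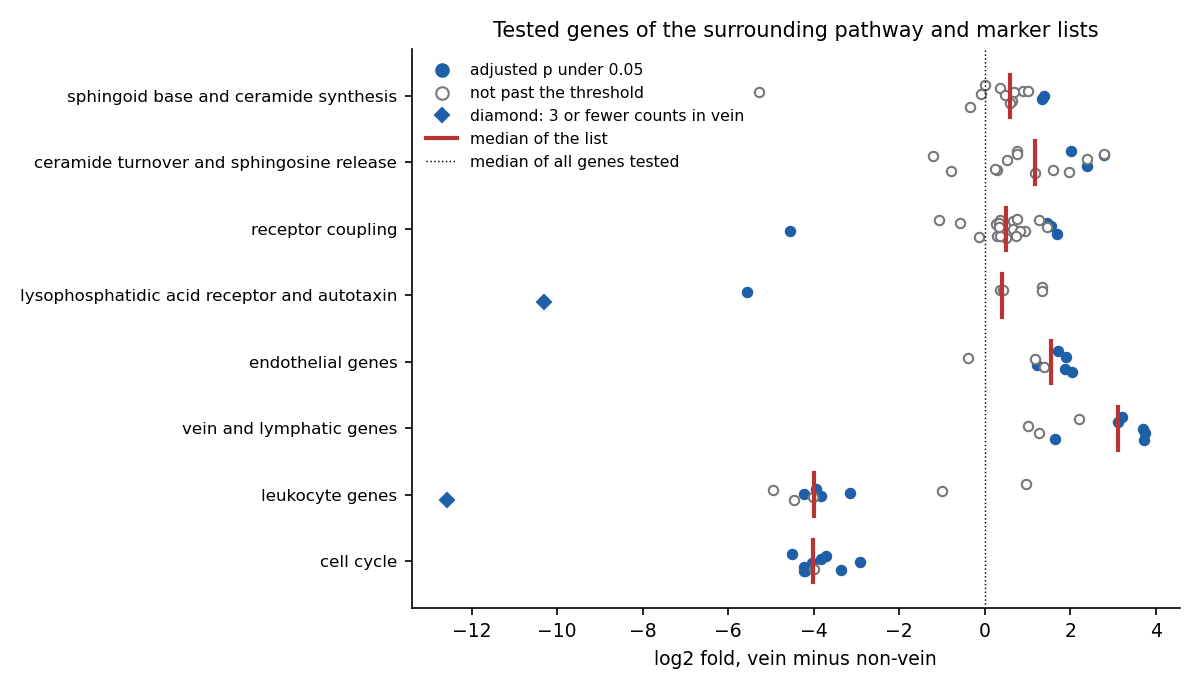
Log2 fold of vein minus non-vein of each tested gene in 4 of the surrounding pathway lists and in 4 marker or cell cycle lists, with 1 symbol per gene and the list median as a red line. The medians of the 4 pathway lists drawn lie between 0.40 and 1.17, the endothelial markers at 1.55 and the leukocyte markers at -3.98. Filled symbols pass the threshold, and diamonds had 3 or fewer counts in vein, so their fitted size depends on the prior count.

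Among 23 tested genes that couple the receptors to the cell, 3 were higher and 1 lower (median log2 0.50), against 4.11% and 7.33% of all genes tested. ARRB2 (ENSDARG00000011545), an arrestin that takes active receptors off the membrane, rose 3.21-fold, arhgef12b 2.93-fold, and rac1a, a GTPase of junctions and the cell cortex, 2.73-fold (edgeR, adjusted p = 0.0371, 0.0352 and 0.0288). A second ARRB2 gene (ENSDARG00000039215) went the other way, at 84.4 and 49.5 CPM in non-vein, against 31.5 and 32.8 CPM in vein. It did not pass (edgeR, adjusted p = 0.113). At an unadjusted p under 0.05 in edgeR, 3 coupling genes were higher and 2 lower, this ARRB2 gene among the latter. Of all 15953 genes tested, 4795 passed this in either direction. GNAI2 (ENSDARG00000017294), one of a pair of genes of that name for an inhibitory G protein subunit, had 128 and 72.3 CPM in non-vein, against 2.61 and 5.87 CPM in vein. It fell 23.5-fold in vein (log2 -4.56, SE 0.57; edgeR, adjusted p = 0.0157), and its log2 fold was -5.26 without vein library 2. The other GNAI2 gene (ENSDARG00000018174) had 79.4 and 75.3 CPM in non-vein, against 43.2 and 60.5 CPM in vein, and did not pass (edgeR, adjusted p = 0.262). gnai1, also for an inhibitory subunit, had 58.5 and 39.0 CPM in non-vein, against 62.4 and 92.5 CPM in vein. Leukocyte markers were lower in the same vein libraries, and their part in the GNAI2 level was not tested. Leaving out non-vein library 1 ended the calls of ARRB2, arhgef12b and rac1a (adjusted p = 0.0577, 0.111 and 0.0589), and so did leaving out vein library 1 (0.0908, 0.1005 and 0.0715). That of rac1a also ended when vein library 2 was left out (0.0523). Unfiltered log2(FPKM + 1) in limma ended all of these as well (0.0804, 0.123 and 0.0536), and arhgef12b passed in 9 of 15 alternative settings, against 11 for each of the others.

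Lysophosphatidic acid is a related lipid that plpp3 also dephosphorylates. Its receptors gave 2 lower and 0 higher of 6 tested by edgeR (median log2 0.40), against 7.33% and 4.11% of all genes tested. At an unadjusted p under 0.05 in edgeR, 1 was higher, LPAR6, and 2 were lower. Of all 15953 genes tested, 4795 passed this in either direction. DESeq2 called LPAR6 higher and limma-voom did not, where they called 1611 and 1026 of the 15953 genes higher. lpar5a had 199 and 129 CPM in non-vein, against 3.33 and 3.64 CPM in vein, a 47.1-fold fall (log2 -5.56, SE 0.37; edgeR, adjusted p = 0.00985). LPAR2 (ENSDARG00000042561) had 187 and 161 counts in non-vein and 0 in vein, at least 94.4-fold lower with the vein sum set to 3 counts (edgeR, adjusted p = 0.0270). Leaving out non-vein library 1 ended its call (adjusted p = 0.0934). LPAR6 (ENSDARG00000062552), at 17.2 and 45.0 CPM in non-vein, against 79.2 and 78.5 CPM in vein, had an adjusted p of 0.134 by edgeR. With 1 library left out its log2 fold ran from 0.81 to 2.19, and was highest without non-vein library 2. ENPP2, for autotaxin, the enzyme that makes lysophosphatidic acid, had 54 counts in non-vein library 1 and 0 in the other libraries.

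The genes closest to s1pr1 over the 4 libraries, by the root mean square difference of log2(CPM + 0.5) after each gene's own mean was taken off, were OGN (0.04), cry4 (0.06) and TRIB3 (0.06). TRIB3 had 42.4 and 73.7 CPM in non-vein, against 260 and 287 CPM in vein. Those closest to spns2 were si:dkey-110g7.8 (0.02), CTTNBP2NL (0.03) and ADD3 (0.04). With 4 libraries of 2 groups, the points share their group, so that any gene of like fold scores well.

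**Figure D5:**
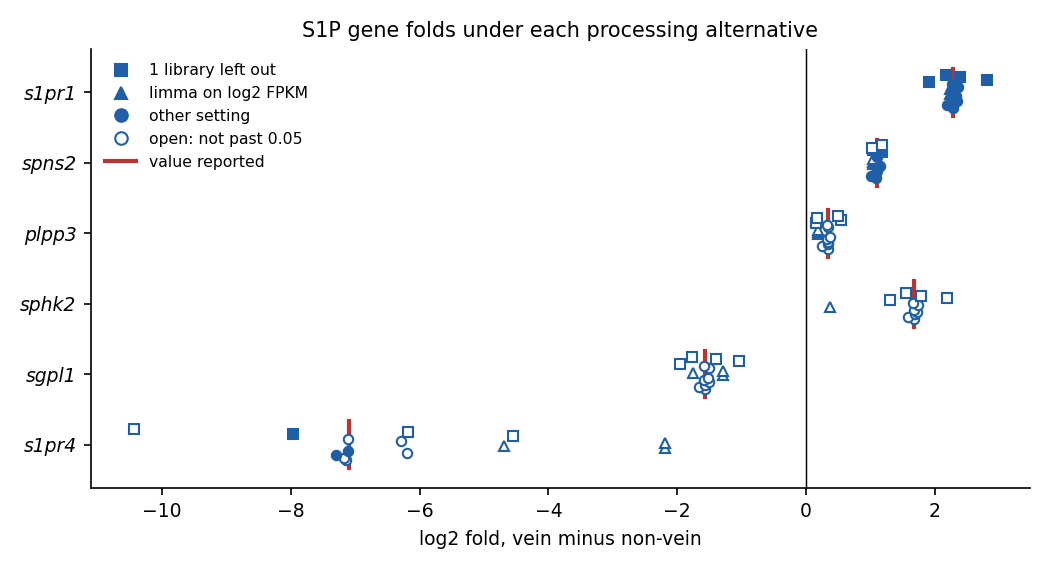
Log2 fold of vein minus non-vein of the 6 tested members under each alternative setting, with the reported value as a red line. Filled symbols pass the threshold. s1pr1 stays past it in 15 of 15 settings at 1.90 to 2.81, while s1pr4 spreads widely and passes in 3 of 14.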

How the data were processed

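mRNA of sorted cells was sequenced in 4 libraries, 2 vein and 2 non-vein. Per the submitters' processing notes, which give no roles, the build was GRCz11 and the tools were RSEM, DESeq2, HISAT2, StringTie 1.3.1, Bowtie2 2.2.8 and fastp 0.18.0. No source used here gives the use of strand. The first deposited table holds whole numbers headed as FPKM, with totals that differ between libraries, and they were used as rounded estimated counts, as the authors deposited them. The second holds FPKM per the file headers. Of 25522 Ensembl identifiers, 23608 had a symbol in the name table given with the data. No sequences were given with the data, and none is printed.

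The main test was edgeR 4.0.16, after the filterByExpr filter at a minimum count of 10 and TMM scaling (quasi-likelihood, legacy method, group as the only factor, Benjamini-Hochberg over all genes, threshold 0.05, R 4.3.3). CPM are TMM-scaled, and the SE of a log2 fold is the fold over the square root of F. Alternatives used limma 3.58.1, DESeq2 1.42.0, other scalings and filters, a replicate block and each library left out. The procedure was run on simulated counts with less spread than these libraries have, so that run does not measure its error rate here. The members, lists and tests were chosen with earlier results of these data known.

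A list symbol was matched ignoring case, or by a name lacking its paralog letter. Text names all members, up to 6 changed genes per pathway list (or the most abundant), and the 3 genes most like each changed member. It names the 2 most abundant leukocyte and thrombocyte markers, with kdrl and lyve1b as checks of the sort. The plan to name the 2 most abundant markers of each cell type was not followed for every other list. S1PR5, SPNS1, SPNS3, abca1b, mfsd2b, apom, SGPP1, CERS6, ASAH1, the second GNAI2, the second ARRB2, gnai1, LPAR6 and ENPP2 were named after their values were seen. So were the TAGLN gene, NOTCH3, PDGFRB, CSPG4, col1a1a, col1a2, acta2, HEY2, HEY1, TBX20, the CXCR4 genes, cd74b, itga2b and mpl.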

Additional observations from a re-analysis of the deposited data

How the results depend on the processing

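Of the members, s1pr1, sphk2, sgpl1 and plpp3 kept their direction and their side of the threshold in every alternative that could be fitted. The number of members higher in vein, 2, was 1 with unfiltered log2(FPKM + 1) in limma, where spns2 had a log2 fold of 1.04, and 1 to 2 with 1 library left out (spns2 at 1.03 to 1.18). The number lower, 0, was 1 with DESeq2 and without a filter, where s1pr4 was at -7.30 and -7.11, and 0 to 1 with 1 library left out (s1pr4 at -10.44 to -4.56). Over all genes, 656 higher and 1170 lower became 1611 and 2307 with DESeq2 and 1163 and 2137 with limma on log2(FPKM + 1). There were 1026 higher with limma-voom, 1092 without a filter and 333 with unfiltered log2(FPKM + 1) in limma, and 1769 lower with limma on log2(FPKM + 0.1). With 1 library left out the counts were 408 to 942 higher and 622 to 1313 lower, fewest without vein library 1 and without non-vein library 1. The cause of these changes was not tested. The labels do not say whether same-numbered libraries form pairs. Their deviations correlated at r = 0.04 across genes, which cannot settle this, because the groups hold different cells. The main fit took the libraries as unpaired. With the replicate block 454 genes were higher and 716 lower, and s1pr1 (adjusted p = 0.0298) and spns2 (0.0425) passed. The block ended the calls of ARRB2 (0.0717), arhgef12b (0.0706) and LPAR2 (0.0706). Without TMM scaling the median log2 fold of all genes was -0.09. For other pathway genes and their counts, 996 comparisons with an alternative kept the call or count, 38 gained it, 21 lost it and 8 moved a count by more than 1.5 times. At 15672159 to 18862102 counts, sphk1, s1pr2 and s1pr3a lay below what could be measured.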
